A study of Homo sapiens with 12 samples.

Results

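The effect of tin protoporphyrin on RNA levels was measured against its solvent in SH-SY5Y, an established neuroblastoma line of human origin with neuron-like traits. The comparison used 6 of the 12 libraries of the series: 3 from wells given tin protoporphyrin and 3 from wells given DMSO alone. Every gene that passed a filter on low counts was included, which left 16366 of the 60710 genes in the deposited table. All wells, controls included, received 10 µL of DMSO in 2 mL of medium. Treated wells reached 5 µM tin protoporphyrin, and cells of both groups were lysed after 5 h. Zinc protoporphyrin and HPPE, a compound that the labels do not spell out, were given to the other 6 wells at the same dose and for the same time. All cells came from 1 line at 1 dose and 1 time, and the labels do not say whether the replicates were separate cultures. P-values therefore measure the spread between these libraries, which may be technical.

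Tin protoporphyrin carries the porphyrin ring of heme with tin in place of iron, so heme oxygenase can bind it but cannot open its ring. It is known as an inhibitor of the 2 heme oxygenases, the inducible HMOX1 and the constitutive HMOX2, which turn heme into biliverdin, iron and carbon monoxide. Heme also releases the repressor BACH1 from genes that the transcription factor NRF2 activates, HMOX1 among them, and the title of the series places the compounds in a study of NRF2 activators. Cells answer changes at their surface and in their skeleton through other routes. The MAP kinase cascade induces its own inhibitors (Sprouty proteins and DUSP phosphatases), serum response factor (SRF) and YAP read the state of actin, and SREBP2 raises cholesterol synthesis when membrane sterol is short.

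Depth differed between the libraries, and so did a trend that the groups do not account for. DMSO replicate 3 was shallow, with 1514595 counts against 6986518 to 9145399 in the other 5 libraries. A count of 3, used as the floor of detection, stood for 1.91 CPM (normalised counts scaled to 1000000 per library) there and for 0.337 to 0.417 CPM elsewhere. One axis held 52.2% of the variance of libraries around their group means over 10965 expressed genes. DMSO replicates 1 and 2 and tin protoporphyrin replicate 2 lay on one side of this axis, and DMSO replicate 3 with tin protoporphyrin replicates 1 and 3 on the other. Each library's deviation from the mean of all 12 libraries, not of its group, was also set against transcript length across genes. The Spearman correlation ran from -0.46 to 0.44 in the controls and from -0.54 to 0.52 in the treated libraries. Both groups thus held both signs of this correlation. Axis scores are centred within each group, so each group had to lie on both sides of the axis. Summed noradrenergic markers stood at 5474 to 5800 CPM in the controls and 5142 to 5579 CPM in the treated libraries, although TH was at or near 0. Leukocyte markers summed to under 2 CPM in every library, and 7 of 11 were at 0 in all 6. Epithelial markers summed to 13.8 to 16.6 CPM in the controls and 15.9 to 20.2 CPM in the treated libraries.

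Tin protoporphyrin raised many more genes than it lowered. With edgeR's quasi-likelihood test and Benjamini-Hochberg adjustment, 311 genes were higher (1.9% of those tested) and 62 lower (0.379%), 2.28% in all. An unadjusted p under 0.05 was found in 14.7% of genes, and a log2 fold change above 0 in 51.6%. Increases were the larger changes: 92 reached 2-fold, whereas 0 of the 62 decreases did. The median log2 fold change was 0.72 among the increases, -0.45 among the decreases and 0.01 over all genes tested. Of the increases, 305 had treated and control libraries that did not overlap, as did 59 of the decreases. Such separation was seen in 10.3% of all genes in the upward and 7.6% in the downward direction. The decreases were in more abundant genes, with a median control level of 50.5 CPM against 21.0 CPM for the increases and 21.4 CPM for all genes tested. Both kinds had longer transcripts than the rest, at a median of 4219 nucleotides for the increases and 4965 for the decreases, against 3327 for all genes tested. Over the 16185 tested genes with a known length, log2 fold change and length had a Spearman correlation of -0.18. The part of transcript length in the calls was not tested. These are bulk samples, in which fewer cells of a type and less RNA per cell cannot be told apart.

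**Figure D1:**
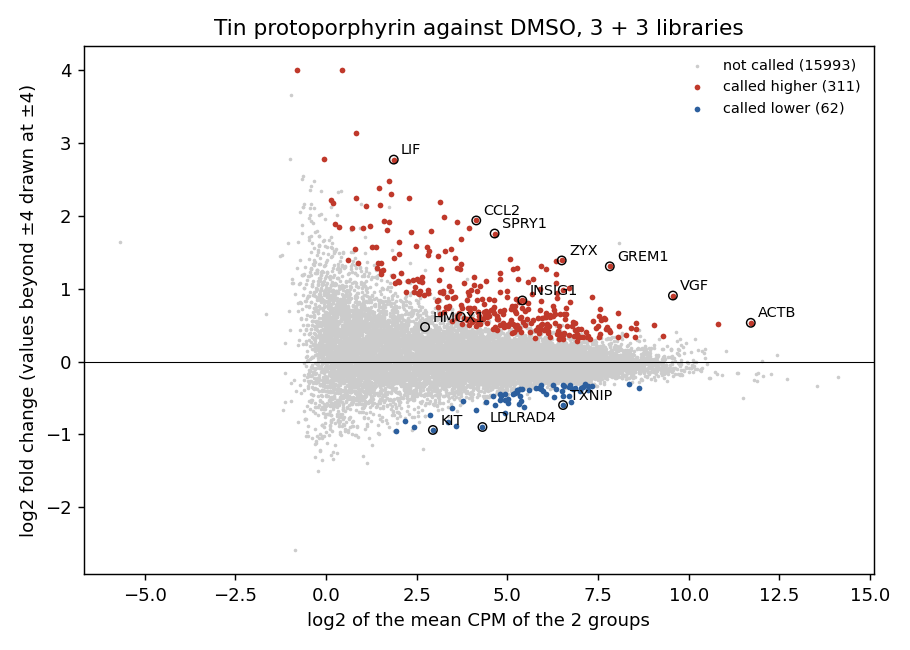
Log2 fold change of tin protoporphyrin against DMSO (vertical axis) by log2 mean CPM of the 2 groups (horizontal axis) for each of 16366 genes. Red points are the 311 genes called higher and blue points the 62 called lower at an adjusted p under 0.05, grey points were not called, and black rings mark the genes named. Red points reach far from 0, whereas no blue point lies below -1.

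Both counts rested in part on single libraries. The 311 increases became 155 without DMSO replicate 1, 137 without DMSO replicate 2 and 177 without tin protoporphyrin replicate 3. The 62 decreases became 9, 9 and 12 in the same order, then 102 without DMSO replicate 3, 32 without tin protoporphyrin replicate 1 and 237 without tin protoporphyrin replicate 2. Fitted on their own, without the other groups to add to the estimate of spread, the 6 libraries gave 127 increases and 4 decreases, of which 125 and 4 were among the calls above. With the library axis as a covariate, an estimate drawn from the same data, there were 1254 increases and 937 decreases, and these held all 311 and all 62.

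The enzymes that tin protoporphyrin inhibits showed no called change in their RNA. HMOX1 stood at 5.42, 4.62 and 7.66 CPM in the controls and at 7.97, 7.20 and 6.96 CPM in the treated libraries. The groups overlapped, since DMSO replicate 3 exceeded tin protoporphyrin replicates 2 and 3. Its log2 fold change was 0.47 ± 0.29 (SE; 95% interval -0.14 to 1.09, adjusted p 0.487). HMOX2 was at 24.5 ± 2.31 CPM (SD, n = 3) in the controls and 24.1 ± 0.65 CPM in the treated libraries, a log2 fold change of 0.01 ± 0.12. Its interval ran from -0.24 to 0.26.

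None of the 9 tested genes of heme breakdown and transport was called by edgeR or by DESeq2, and none had an unadjusted p under 0.05. Biliverdin reductase A (BLVRA), which acts on the product of heme oxygenase, had a log2 fold change of 0.14 ± 0.12. Of the 11 genes of heme synthesis and mitochondrial porphyrin transport, 8 were below 0, with a median of -0.16, and 0 were called by either tool. ALAD and FECH, the second and the last enzyme of the pathway, were the 2 with an unadjusted p under 0.05, at -0.30 ± 0.11 and -0.24 ± 0.10. ALAS1, the first and rate-limiting enzyme, stood at 23.8, 26.3 and 31.9 CPM in the controls and at 22.3, 20.8 and 24.2 CPM in the treated libraries, and the groups overlapped. Its log2 fold change of -0.23 ± 0.12 was not called (adjusted p 0.4). Among 11 genes of iron handling 0 were called. The transferrin receptor TFRC was the 1 with an unadjusted p under 0.05, at -0.20 ± 0.08, while the ferritin chains FTH1 and FTL stood at 0.06 ± 0.13 and -0.10 ± 0.14.

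NRF2 targets gave no call either. Of 27 tested, 0 were called by edgeR or DESeq2, 17 were above 0 (51.6% of all genes were), and the median log2 fold change was 0.06. In 5 of the 27 an unadjusted p fell under 0.05, near the share of 14.7% over all genes in either direction. The 5 were all upward: ABCC1, SQSTM1, OSGIN1, UGDH and SRXN1, the last encoding sulfiredoxin, which repairs oxidised peroxiredoxins. SRXN1 was at 1.59, 1.45 and 1.28 CPM in the controls and 2.23, 2.47 and 2.50 CPM in the treated libraries. These values did not overlap, but DMSO replicate 3 was below its detection floor, and the adjusted p was 0.32. NQO1, GCLM and TXNRD1, a quinone reductase, a subunit of the enzyme that starts glutathione synthesis and a thioredoxin reductase, had log2 fold changes of 0.16 ± 0.16, 0.08 ± 0.13 and -0.02 ± 0.09.

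Of all genes, GREM1 had the smallest p. GREM1 (chr15:32717974-32745107 in GENCODE 29), a secreted antagonist of bone morphogenetic proteins (BMPs), stood at 137, 136 and 116 CPM in the controls and at 318, 330 and 324 CPM in the treated libraries. All 3 treated values were more than double the highest control, and the fold change was 2.47 (log2 1.31 ± 0.08, adjusted p 8.13e-08). SPRY1 (chr4:123396795-123403760), a Sprouty inhibitor of receptor tyrosine kinase signalling, was at 10.7, 11.4 and 13.4 CPM and rose to 39.0, 37.5 and 38.7 CPM. The treated libraries lay within 2 CPM of each other, and the fold change was 3.38 (log2 1.76 ± 0.12, adjusted p 2.92e-07).

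TFPI2 (chr7:93885396-93890991), a Kunitz-type protease inhibitor of the extracellular matrix, went from 44.4, 46.5 and 42.1 CPM to 132, 111 and 107 CPM. DKK2, a secreted modulator of Wnt signalling, went from 19.0, 19.7 and 15.3 CPM to 52.5, 47.8 and 48.7 CPM. For both genes the lowest treated library was at least double the highest control, and the adjusted p was at most 7.2e-07. The next 5 were ZYX, INSYN2B, SYNJ2 (a phosphoinositide phosphatase), the zinc-finger factor KLF6 and XYLT1, which starts glycosaminoglycan chains on proteoglycans. Their fold changes ran from 1.91 for KLF6 to 4.57 for INSYN2B. These 9 genes kept their calls in each of 15 alternative fits.

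The largest fold changes were in genes near the floor of detection. MALL had 0 counts in all 3 controls and stood at 1.99, 1.46 and 4.73 CPM with tin protoporphyrin. Cytokine receptor IL7R and the immunoglobulin-superfamily gene SIRPG had no control above the floor either. SIRPG and its antisense partner SIRPG-AS1 were both called; the use of strand in counting is not stated, so their reads cannot be told apart. The same limit on assignment holds for RN7SL3, a copy of the repeated 7SL RNA. LIF, a cytokine of the interleukin-6 family, was at 0.132, 1.58 and 1.28 CPM in the controls and 6.21, 5.06 and 7.65 CPM in the treated libraries. EDN1, the precursor of endothelin-1, was at 1.06, 1.06 and 0.638 CPM and rose to 4.92, 4.84 and 7.65 CPM. Both were clear of overlap, with fold changes of 6.82 and 5.57 (adjusted p 0.0012 and 0.000306). The log2 fold change of LIF, 2.77, was 2.02 without DMSO replicate 1 and 4.15 without DMSO replicate 2, and the call held in both. SPOCD1, NIPAL4 and TM4SF1 completed the 10 largest, at 4.71-fold to 5.22-fold. IL7R and SIRPG lost their calls without DMSO replicate 1 or DMSO replicate 2, TM4SF1 without DMSO replicate 2, and MALL when the 6 libraries were fitted alone.

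Genes of the actin skeleton and targets of SRF and YAP rose most often among the 28 lists of pathway genes. Of 22 tested, 12 were called higher and 0 lower, and the median log2 fold change was 0.51. With CCN2, whose controls were all at or under the floor, set to its lower bound, the median was 0.44. ZYX (chr7:143381080-143391111) encodes zyxin, an adaptor of focal adhesions and stress fibres. It stood at 46.8, 50.03 and 55.5 CPM in the controls and 148, 113 and 130 CPM in the treated libraries, so the lowest treated value was more than double the highest control (fold change 2.62, log2 1.39 ± 0.11, adjusted p 7.2e-07). VCL, the adhesion protein vinculin, went from 148, 140 and 138 CPM to 217, 264 and 220 CPM. CCN1, a secreted matrix protein under YAP and SRF control, went from 18.7, 22.6 and 22.3 CPM to 59.2, 39.9 and 52.3 CPM. Neither gene's groups overlapped, and tin protoporphyrin replicate 2 was the highest library for VCL and the lowest treated one for CCN1.

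The cytoplasmic actins themselves were among the most abundant genes called. ACTB stood at 2513, 2590 and 3144 CPM in the controls and 4629, 3272 and 4007 CPM in the treated libraries, and ACTG1 at 1438, 1419 and 1554 against 2258, 1893 and 2141 CPM. The ACTB groups were separated by little, since DMSO replicate 3 came close to tin protoporphyrin replicate 2. Their log2 fold changes were 0.53 ± 0.13 (adjusted p 0.0319) and 0.51 ± 0.09 (0.00507). Both genes have many processed copies in the genome, which can share their reads. Tropomyosins TPM4 and TPM1 rose 1.42-fold and 1.27-fold, calponins CNN2 and CNN1 1.70-fold and 2.96-fold, and ANKRD1, FHL2 and TAGLN 2.90-fold, 1.96-fold and 1.52-fold. The regulators SRF and TEAD1, a DNA-binding partner of YAP, were not called, at 0.12 ± 0.07 and 0.08 ± 0.12. The 12 calls became 7 without DMSO replicate 1 and 6 without DMSO replicate 2. ACTG1 lost its call without DMSO replicate 2, ACTB without either of these or without tin protoporphyrin replicate 1 or 3, and both when the 6 libraries were fitted alone.

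SRF binds the CArG box, a run of 6 A or T bases between CC and GG. Because this list led the others, the box was searched on both strands in RefSeq promoters (250 bases before to 50 after a start, GRCh38.p14), a search chosen after the calls were seen. It was present in 1.29% of 35116 promoters and in 1.13% of those of tested genes. Of the 311 increases 236 had a promoter in the table, and 4.18% of their 407 promoters held the box. Counted by gene, it was in 178 of 11346 tested genes with a promoter. Among listed actin genes it was in 7 of 18 with a promoter, and in 4 of the 9 that were called: ACTG1, CNN2, TPM4 and FHL2. The list names targets of SRF, so a high share among its genes was built into it and supports nothing. SRF, FHL1 and FLNA, which were not called, held the box too, so it did not set the called genes apart. The stretches below show it in capitals for the 3 called genes where it lay before the start and outside annotated exons. They are at chr19:16067340-16067399 (plus strand), chr19:1026494-1026553 (plus strand) and chr2:105438580-105438639 (minus strand), each written in the direction of the gene. The box lay 173, 89 and 101 bases before a listed start.
TPM4: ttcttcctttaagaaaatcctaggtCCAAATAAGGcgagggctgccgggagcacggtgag
CNN2: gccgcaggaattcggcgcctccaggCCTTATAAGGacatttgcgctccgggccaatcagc
FHL2: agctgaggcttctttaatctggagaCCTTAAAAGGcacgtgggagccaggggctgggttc
A match is a description of these letters and not of a bound site. The AP-1 motif TGANTCA was in 7.71% of all promoters, 5.09% of those of tested genes and 7.13% of those of the increases. In the same order, the antioxidant response element TGACNNNGC was in 13.3%, 14.5% and 12.8%, and the cAMP response element TGACGTCA in 1.85%, 2.86% and 2.95%.

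Genes of cholesterol supply were the second list with many calls. Of 24 tested genes of sterol synthesis and uptake, 9 were called higher and 0 lower, 22 were above 0, and the median log2 fold change was 0.32. INSIG1, which holds SREBP proteins in the endoplasmic reticulum and is itself their target, stood at 27.4, 29.7 and 37.6 CPM in the controls and rose to 60.2, 51.1 and 49.96 CPM. Its highest control was DMSO replicate 3, which stayed below each treated library. The fold change was 1.79 (log2 0.84 ± 0.11, adjusted p 0.00023).

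The calls ran along the synthetic pathway but not through all of it. HMGCS1, which makes HMG-CoA, stood at 57.5, 62.6 and 67.6 CPM in the controls and 94.5, 96.3 and 99.4 CPM in the treated libraries, with no overlap (log2 0.65 ± 0.09, adjusted p 0.000292). Mevalonate kinase MVK rose 1.42-fold, squalene epoxidase SQLE 1.26-fold, and the later enzyme MSMO1 1.42-fold. STARD4, a cytosolic sterol carrier, rose 1.51-fold. The enzymes IDI1, FDFT1, LSS, HSD17B7 and DHCR7 and the regulator SREBF2 had an unadjusted p under 0.05 without being called, at log2 fold changes from 0.17 to 0.60. EBP and TM7SF2 were below 0, at -0.07 ± 0.16 and -0.20 ± 0.12. CYP51A1, ACAT2, FDPS, MVD, SC5D, PMVK and NSDHL ran from 0.00 to 0.31.

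Related lipid lists gave 0 calls. Of 14 genes of fatty acid synthesis, 12 were above 0 (51.6% of all genes were) and 4 were higher without overlap (10.3% of all genes were). None of 14 genes of fatty acid synthesis was called by edgeR or DESeq2, with a median of 0.10 and 1 at an unadjusted p under 0.05; FASN, fatty acid synthase, stood at 0.10 ± 0.08 and the desaturase SCD at 0.12 ± 0.11. None of 7 genes of sterol export under LXR control was called by either tool, and 1 had an unadjusted p under 0.05; the exporter ABCA1 stood at 0.14 ± 0.24. The 9 sterol calls became 4 without DMSO replicate 1, without DMSO replicate 2 or without tin protoporphyrin replicate 3, and 3 when the 6 libraries were fitted alone. INSIG1 and HMGCS1 kept their calls in each of 15 alternative fits.

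**Figure D2:**
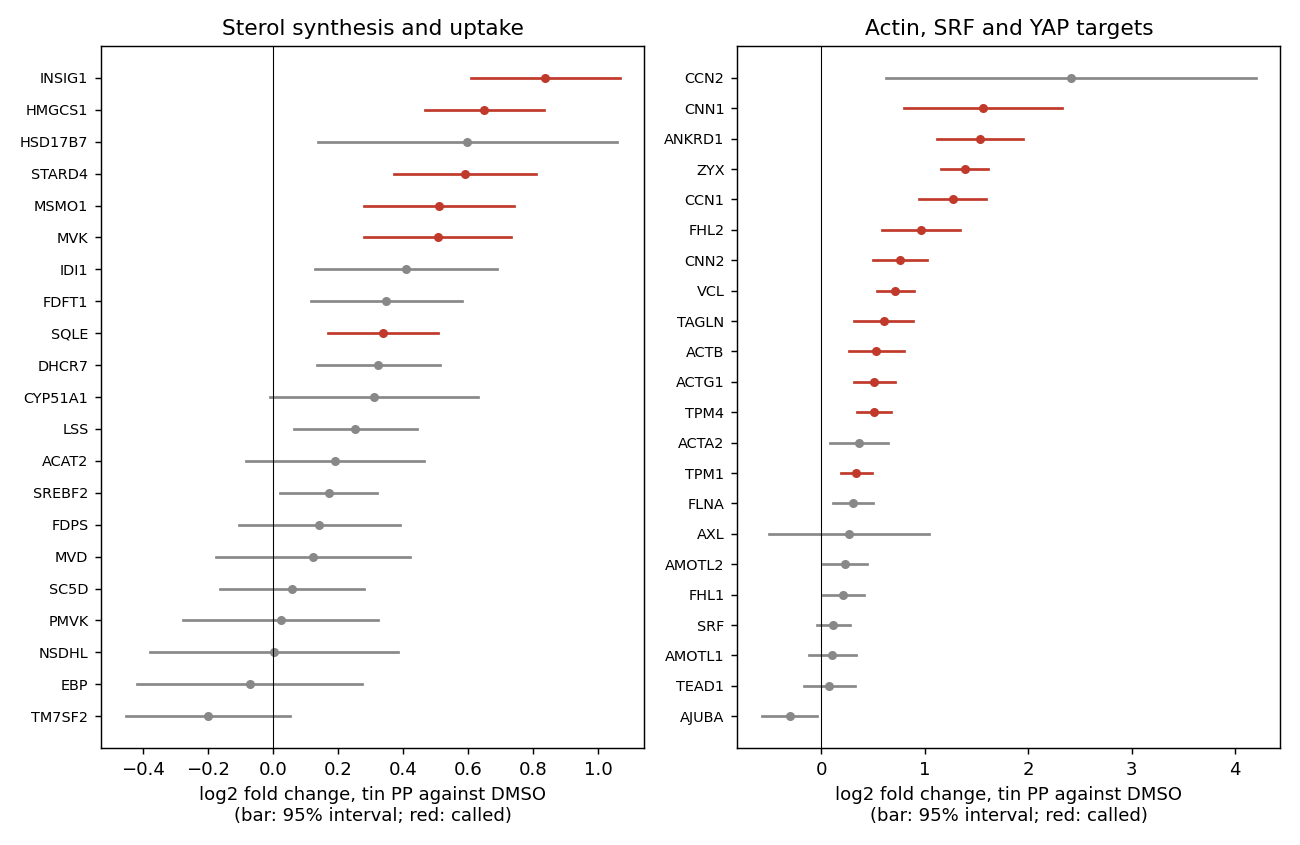
Log2 fold change of tin protoporphyrin against DMSO with its 95% interval for genes of sterol synthesis and uptake (left, 21 of the 24 tested) and of the actin, SRF and YAP list (right, 22 genes). Red marks the 6 and 12 genes shown that were called higher and grey those not called; in both panels most points lie to the right of 0, and CCN2, at or under the floor in the controls, has the widest interval.

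Promoters of the sterol genes were searched for the sterol regulatory element TCACNCCAC, at which SREBP binds, and for the CCAAT box, at which its partner NF-Y binds, on both strands. The first was in 1.13% of all promoters, in 1 of 18 tested sterol genes with a promoter (SREBF2) and in 0 of the 5 that were called. The CCAAT box was in 34.6% of all promoters and in 26.5% of those of the increases. Counted by gene, it was in 4857 of 11346 tested genes with a promoter, in 16 of these 18 genes and in all 5 called ones. Most genes of this list held the box, so it did not set the called ones apart. The stretches below show it in capitals, as CCAAT or its reverse complement ATTGG, for 4 called genes. They lie at chr7:155297683-155297737 (plus strand), chr5:43313538-43313592 (minus), chr5:111512636-111512721 (minus) and chr4:165327459-165327622 (plus), before the start and outside annotated exons.
INSIG1: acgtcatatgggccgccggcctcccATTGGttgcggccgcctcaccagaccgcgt
HMGCS1: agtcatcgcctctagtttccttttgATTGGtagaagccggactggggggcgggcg
STARD4: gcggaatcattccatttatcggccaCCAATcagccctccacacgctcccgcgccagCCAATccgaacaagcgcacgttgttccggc
MSMO1: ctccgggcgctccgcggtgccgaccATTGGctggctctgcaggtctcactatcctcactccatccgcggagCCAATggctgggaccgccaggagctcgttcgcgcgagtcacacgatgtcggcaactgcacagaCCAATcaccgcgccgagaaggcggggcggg
MSMO1 held 3 boxes in this window and STARD4 held 2.

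Feedback inhibitors of MAP kinase signalling rose beside SPRY1. Of 19 tested, 8 were called higher and 1 lower, with a median log2 fold change of 0.39. SPRY4 went from 82.4, 83.7 and 86.1 CPM to 117, 124 and 111 CPM, and PHLDA1, a pleckstrin-homology protein induced by growth factors, from 7.54, 6.47 and 3.83 CPM to 12.9, 12.7 and 12.5 CPM. Neither overlapped between the groups (adjusted p 0.00203 and 0.00535). The dual-specificity phosphatases DUSP1 and DUSP4 rose 1.68-fold and 1.35-fold, SPRY2 and SPRED3 1.36-fold and 1.42-fold, and the ETS factor ETV4 1.31-fold. Its relative ETV1 fell, from 40.3, 36.7 and 37.6 CPM to 26.7, 28.6 and 24.9 CPM (log2 -0.52 ± 0.10, adjusted p 0.00782). The 8 increases became 4 without DMSO replicate 1, 2 without DMSO replicate 2, 5 without tin protoporphyrin replicate 1, 3 without replicate 3 and 2 when the 6 libraries were fitted alone. ETV1 lost its call in 3 of 15 alternative fits, among them those without DMSO replicate 1 or tin protoporphyrin replicate 3.

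Immediate early genes and AP-1 subunits were raised in part. Of 16 tested, 5 were called higher and 0 lower (median 0.40): KLF6, FOSL1, FOSL2, EGR1 and JUN. KLF6 stood at 56.8, 54.2 and 58.7 CPM in the controls and 104, 107 and 111 CPM in the treated libraries (log2 0.94 ± 0.08, adjusted p 2.15e-06). FOSL1, a late member of the FOS family, stood at 2.12, 3.30 and 3.19 CPM and rose to 9.38, 6.30 and 9.32 CPM. FOS itself, which peaks early after a stimulus, was at 3.16 ± 1.14 CPM and 2.81 ± 0.30 CPM (SD, n = 3), a log2 fold change of 0.04 ± 0.31. EGR1 and JUN rose 1.56-fold and 1.32-fold. Without DMSO replicate 1 the 5 calls were 2, without tin protoporphyrin replicate 3 they were 3, and in the fit of 6 libraries they were 2.

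Secreted signals and their receptors moved in both directions. Of 20 cytokines and cytokine receptors tested, 7 were called higher and 0 lower, with a median of 0.33. CCL2, a chemokine that attracts monocytes, stood at 4.23, 8.71 and 11.5 CPM in the controls and 37.3, 19.5 and 24.9 CPM in the treated libraries. The lowest treated library was well above the highest control (log2 1.94 ± 0.29, adjusted p 0.000899). GDF15, a stress-induced cytokine of the TGF-beta superfamily, went from 5.82, 5.02 and 10.8 CPM to 20.3, 12.3 and 16.6 CPM, and the chemokine CXCL12 from 9.26, 14.4 and 12.8 CPM to 24.97, 21.5 and 23.9 CPM. Both groups were separate for each gene, with fold changes of 2.68 and 1.96. LIF, IL7R, IL6R and TNFRSF12A, the receptor of TWEAK, were the other calls. For TNFRSF12A the groups overlapped, since DMSO replicate 3 (21.1 CPM) was above tin protoporphyrin replicate 2 (20.8 CPM). The 7 calls became 3 without DMSO replicate 1, 4 without DMSO replicate 2 and 4 in the fit of 6 libraries.

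Of 17 genes of the TGF-beta and activin pathway, 4 were called higher and 1 lower (median 0.18). Ligands rose: INHBA, a subunit of activins, from 11.6, 10.4 and 9.57 CPM to 20.7, 23.2 and 20.0 CPM, TGFB2 from 39.7, 35.2 and 37.0 CPM to 54.4, 58.8 and 55.5 CPM, and TGFB1 1.61-fold. LDLRAD4 (chr18:13217498-13652755), an inhibitor of TGF-beta signalling that holds SMAD proteins away from the receptor, fell from 27.9, 27.2 and 21.7 CPM to 11.96, 16.3 and 14.3 CPM. Every treated library was below every control (log2 -0.90 ± 0.14, adjusted p 0.00127). Without DMSO replicate 2 the increases were 2. The BMP pathway gave 2 increases among 20 genes (median 0.15), GREM1 and ID4, of which ID4 lost its call without DMSO replicate 2 or in the fit of 6 libraries. ID1 and ID3, direct BMP targets, were at 0.40 ± 0.21 and 0.53 ± 0.27 and were not called.

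Growth factors and receptor tyrosine kinases gave 3 increases and 2 decreases among 26 genes tested, with a median of 0.04. NRG1, a ligand of ERBB receptors, rose 1.54-fold, HBEGF, a ligand of the EGF receptor, 1.79-fold, and the receptor PDGFRB 1.27-fold. KIT, the receptor of stem cell factor, stood at 10.5, 9.37 and 10.8 CPM in the controls and fell to 4.92, 5.85 and 4.87 CPM, and PDGFRA fell from 84.8 ± 3.51 to 67.1 ± 2.13 CPM (SD, n = 3). Every treated library was below every control for KIT (log2 -0.94 ± 0.19, adjusted p 0.0117). Without DMSO replicate 1, without DMSO replicate 2 or without tin protoporphyrin replicate 3, 1 increase and 0 decreases were left. In the fit of 6 libraries 0 increases and 1 decrease were left, and without DMSO replicate 3 or tin protoporphyrin replicate 1 there was 1 decrease. Of 32 axon guidance genes 1 was called, the ephrin receptor EPHA2 (46.8, 38.5 and 53.6 CPM against 74.9, 72.9 and 72.1 CPM).

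Neuronal genes were for the most part not called. Of 28 genes of synapses and neurites 3 were higher and 0 lower, with a median of -0.01. VGF, the precursor of several neuropeptides, stood at 456, 529 and 603 CPM in the controls and 1144, 778 and 1040 CPM in the treated libraries (log2 0.91 ± 0.17, adjusted p 0.00535). SCG2, secretogranin II of dense-core vesicles, rose 1.49-fold and SYT4, a synaptotagmin, 1.23-fold. Without DMSO replicate 1 or DMSO replicate 2, and in the fit of 6 libraries, there was 1 call, and without tin protoporphyrin replicate 2 there were 5. Of 18 tested noradrenergic markers 1 was called, the vesicular transporter SLC18A1 (1.51-fold higher). Markers of the mesenchymal, substrate-adherent state of neuroblastoma summed to 2039 to 2118 CPM in the controls and 2288 to 2294 CPM in the treated libraries. Of 15 tested, 4 were called higher: CD44, FOSL1, DCN and PDGFRB. PRRX1, which defines that state, was at 0 in all 6 libraries. The 4 calls became 1 without DMSO replicate 1 and 2 without DMSO replicate 2. The part of these markers in the actin, cytokine and growth factor results was not tested.

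**Figure D3:**
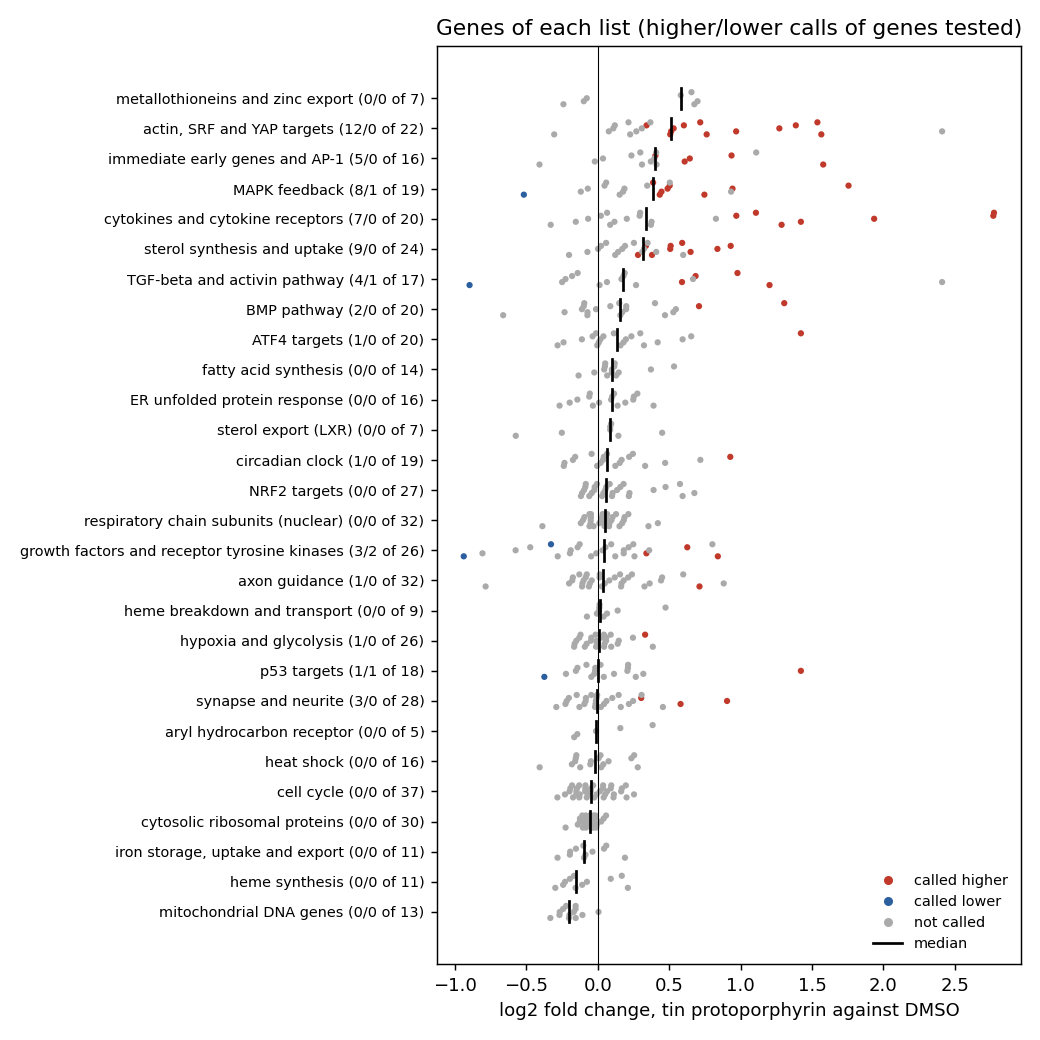
Log2 fold change of tin protoporphyrin against DMSO for the genes of 28 lists, ordered by their median (black bar); labels give genes called higher, called lower and tested. Red points were called higher, blue points lower and grey points not called; 14 lists hold no call, and metallothioneins have the highest median with 0 calls among 7 genes.

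Across the 28 lists 531 different genes were tested, of which 56 were called higher and 5 lower. The background was 1.9% and 0.379% over all genes. In 14 lists 0 genes were called. Cell cycle genes (37 tested, median -0.05), cytosolic ribosomal proteins (30, -0.05), nuclear respiratory chain subunits (32, 0.05) and genes of mitochondrial DNA (13, -0.20) were such lists. Unadjusted p-values under 0.05 were found for 3, 1, 1 and 1 of their genes, and DESeq2 called 0 in each. Below 0 were 27 of the 30 ribosomal and 12 of the 13 mitochondrial DNA genes, whereas 51.6% of all genes were above 0. Of the cell cycle genes 22 were below 0, and of the respiratory chain genes 21 were above 0. Mitochondrial DNA genes gave 4 lower calls without tin protoporphyrin replicate 2 and 7 with the library axis as a covariate. Heat shock genes (16 tested, median -0.02) and the unfolded protein response of the endoplasmic reticulum (16, 0.10) gave 0 calls with either tool and 2 and 1 unadjusted p-values under 0.05. Metallothioneins and zinc export (7 tested) had a median of 0.58 with 0 calls by either tool and 0 unadjusted p-values under 0.05. MT2A was at 2.25, 2.11 and 6.38 CPM in the controls and 6.10, 2.59 and 4.04 CPM in the treated libraries, so that the groups overlapped. The list of ATF4 targets held 1 increase among 20 and that of p53 targets 1 among 18, GDF15 in both. CCNG1, a p53 target that encodes cyclin G1, was 1.296-fold lower.

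Among decreases, those with the smallest p were small changes in well-measured genes. NIPAL3 (chr1:24415794-24472976), of a family of magnesium transporters, stood at 38.9, 40.5 and 32.5 CPM in the controls and 21.9, 26.3 and 21.8 CPM in the treated libraries. BMF (chr15:40087890-40108892), a BH3-only activator of cell death, stood at 38.0, 38.3 and 38.9 CPM and fell to 25.3, 25.8 and 26.6 CPM. The spread of BMF within each group was under 2 CPM, and its log2 fold change was -0.56 ± 0.09 (adjusted p 0.00213). TXNIP, a thioredoxin-binding protein that responds to glucose, fell from 99.6, 117 and 120 CPM to 84.0, 62.2 and 74.3 CPM, and PTCH1, the receptor and a target of Hedgehog signalling, from 78.3, 79.3 and 72.1 CPM to 55.0, 62.7 and 52.6 CPM. Neither overlapped (adjusted p 0.00974 and 0.00722). CMTM4, the lysosomal protein TMEM106B, LINC02693, ETV1 and DESI2, at 1.27-fold to 1.52-fold lower, made up the 10 with LDLRAD4 (1.86-fold lower). NIPAL3, LDLRAD4 and BMF kept their calls in each of 15 alternative fits, and the other 7 lost theirs in 1 to 4. The fits that ended them were that of 6 libraries alone and those without DMSO replicate 1, DMSO replicate 2 or tin protoporphyrin replicate 3.

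No decrease reached 2-fold. The pseudogene ZNRF2P2 (1.93-fold) fell most, ahead of KIT, the antisense RNA ADORA2A-AS1 (1.87-fold), LDLRAD4 and PAIP2B, an inhibitor of translation (1.85-fold). ZNRF2P2 can share reads with its parent gene, and ADORA2A-AS1 with the gene on the other strand. With NIPAL3, a gene without a name, SMIM10L2A, ZNF844 and FITM2 completed the 10 largest; the last 3 were 1.76-fold, 1.67-fold and 1.59-fold lower. Of 15 alternative fits, SMIM10L2A lost its call in 12, ZNF844 in 9, ZNRF2P2 in 8, ADORA2A-AS1 and FITM2 in 5 each, PAIP2B and the unnamed gene in 4 each and KIT in 3. The fit of 6 libraries and those without DMSO replicate 2 or tin protoporphyrin replicate 3 were among them for the first 7 of these. SORL1, a sorting receptor for the amyloid precursor protein, was the largest decrease above 50 CPM, from 59.9, 53.5 and 44.0 CPM to 28.95, 38.4 and 38.4 CPM. Its call was lost without DMSO replicate 1 or DMSO replicate 2 and in the fit of 6 libraries. TSPYL1 fell from 156, 125 and 101 CPM to 76.4, 92.7 and 97.3 CPM, so that DMSO replicate 3 almost met tin protoporphyrin replicate 3. Among increases, the largest in genes of at least 50 CPM in either group were ZYX, TFPI2, GREM1, SYNJ2 and ITGA2, the collagen-binding integrin subunit, which went from 36.4, 40.9 and 23.0 CPM to 75.8, 103 and 88.4 CPM.

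**Figure D4:**
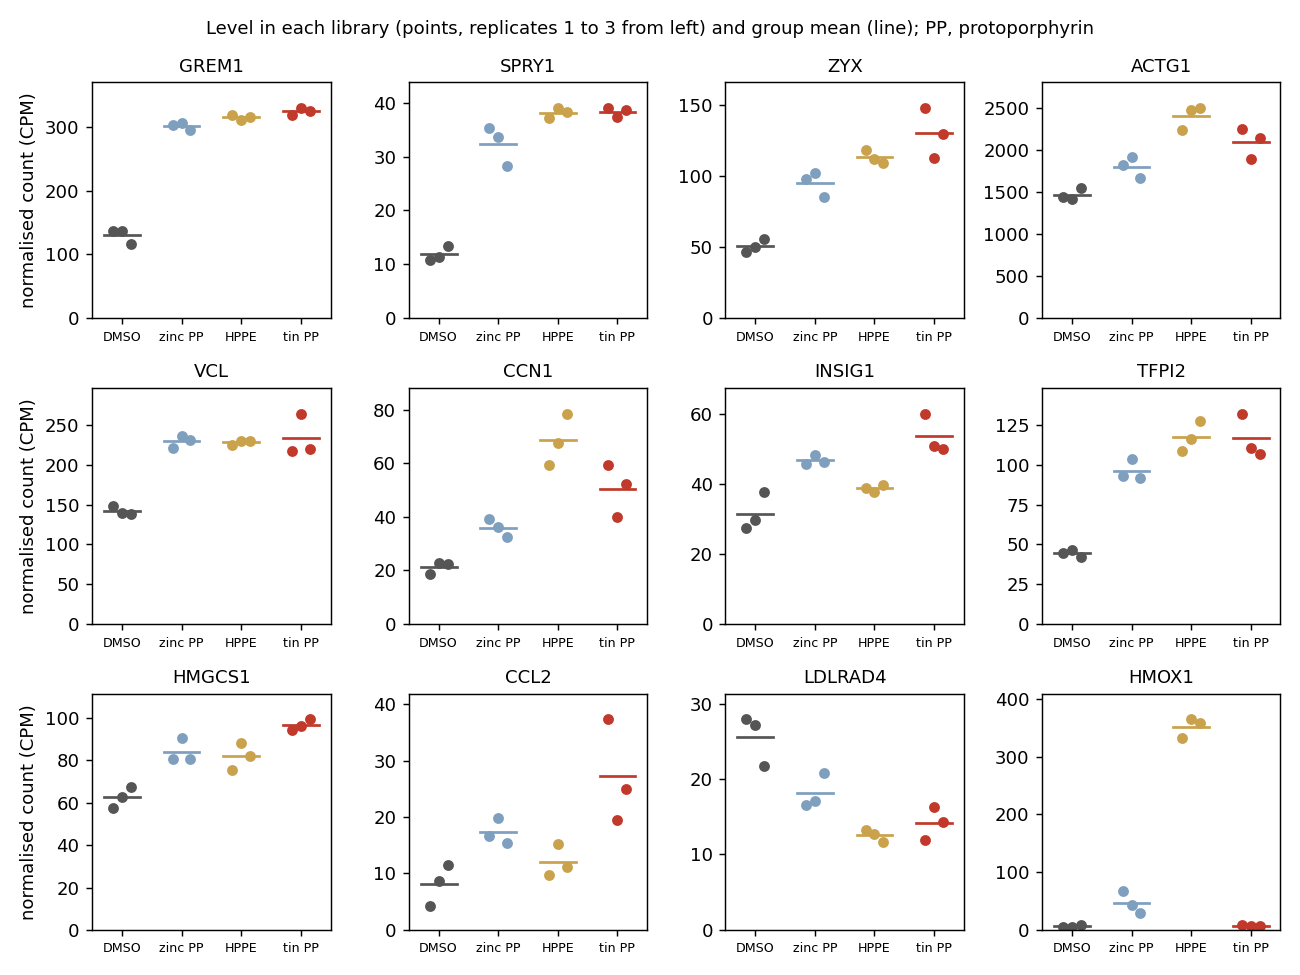
Normalised count (CPM, linear axis from 0) of 12 genes in each of the 12 libraries, with points for replicates 1 to 3 from left to right and a line at the group mean. In all panels but that of HMOX1 the 3 tin protoporphyrin points lie clear of the 3 DMSO points; for HMOX1 they lie at 6.96 to 7.97 CPM, and the DMSO point at 7.66 CPM falls between them.

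Zinc protoporphyrin differs from tin protoporphyrin in the metal at the centre of the ring, and both were given at 5 µM for 5 h. Tin protoporphyrin was compared with 2 other compounds, with p-values adjusted over all genes within each comparison. Zinc protoporphyrin replicate 1 (1337028 counts, floor 2.26 CPM) and HPPE replicate 3 (3141853 counts, floor 0.95 CPM) were shallower than every tin protoporphyrin library. The correlation with transcript length was 0.22 to 0.57 in the zinc protoporphyrin libraries and -0.47 to -0.10 in the HPPE libraries. With tin protoporphyrin it had both signs. The part of this trend in the comparisons was not tested. Between tin and zinc protoporphyrin 1 of 16366 genes was called (0.00611%), HMOX1, which was lower with tin. With zinc protoporphyrin it stood at 67.8, 43.3 and 29.8 CPM, all above the highest tin protoporphyrin library at 7.97 CPM. The means were 47.0 ± 19.2 and 7.38 ± 0.53 CPM (SD, n = 3), a log2 fold change of -2.49 (95% interval -2.93 to -2.05, adjusted p 2.04e-05). DESeq2 called 2 genes, and 2176 genes (13.3%) had an unadjusted p under 0.05, so the small count does not show that the compounds act alike. Without tin protoporphyrin replicate 2 there were 1453 calls, and with the library axis as a covariate 2327.

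The tin protoporphyrin libraries enter both this comparison and that with DMSO, so the values are set side by side without a test of their agreement. GREM1 differed between the metals by 0.11 (interval -0.05 to 0.26) on the log2 scale, where tin against DMSO gave 1.31. ZYX, at 130 ± 17.6 CPM with tin and 95.2 ± 8.59 CPM with zinc protoporphyrin, differed by 0.46 (0.25 to 0.67, adjusted p 0.353). Sterol genes were above 0 in 24 of 24 tested against zinc (51.2% of all genes were), with a median of 0.16, 0 calls and 9 with an unadjusted p under 0.05. DESeq2 called 2 genes in all. The upward shift was not particular to sterol genes. Nuclear respiratory chain subunits were above 0 in 31 of 32 (median 0.21) and cytosolic ribosomal proteins in 28 of 30 (median 0.12). INSIG1 differed by 0.19 (-0.03 to 0.41). ALAS1 was at 22.4 ± 1.71 CPM with tin and 12.5 ± 0.59 CPM with zinc protoporphyrin, a difference of 0.86 (0.57 to 1.14) whose adjusted p of 0.0533 missed the threshold.

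**Figure D5:**
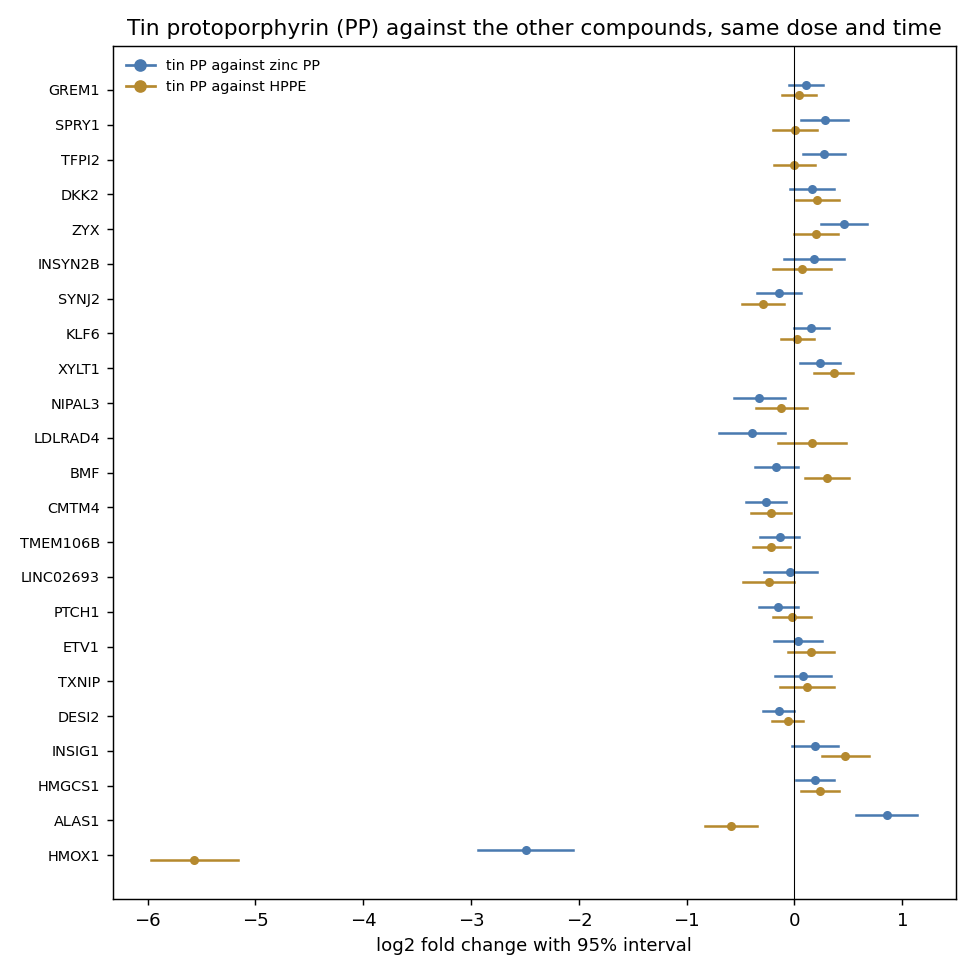
Log2 fold change of tin protoporphyrin against zinc protoporphyrin (blue) and against HPPE (ochre), with 95% intervals, for 9 of the 10 increases and all 10 decreases with the smallest p against DMSO, 2 sterol genes, ALAS1 and HMOX1. HMOX1 lies at -2.49 and -5.57, and the other estimates run from -0.59 to 0.86.

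Against HPPE, 116 genes were higher (0.709%) and 122 lower (0.745%), 1.45% in all, with tin protoporphyrin at the same dose and time. NRF2 targets were lower: 17 of 27 were called, with a median of -0.69. HMOX1 was at 7.38 CPM with tin protoporphyrin and 351.5 CPM with HPPE, a log2 fold change of -5.57 (interval -5.97 to -5.17, adjusted p 1.17e-11). Metallothioneins and zinc export (6 of 7 called lower, median -2.50) and heat shock genes (12 of 16, median -0.61) differed in the same direction. Of 22 actin, SRF and YAP genes 14 were above 0 against HPPE (49.4% of all genes were), with a median difference of 0.03. GREM1, SPRY1 and TFPI2 had the smallest p against DMSO. With HPPE they stood at 315, 38.2 and 118 CPM, and with tin protoporphyrin at 324, 38.4 and 117 CPM. For these genes such levels were thus not particular to tin protoporphyrin. XYLT1 was higher with tin protoporphyrin than with HPPE, by 0.36 (adjusted p 0.0436), but its rise was not particular to tin protoporphyrin either. DMSO controls averaged 51.6 CPM and tin protoporphyrin libraries 112 CPM. Libraries of the HPPE group averaged 86.9 CPM, and those of the zinc group 96.0 CPM. All of these lay above the highest control at 56.6 CPM. For XYLT1 the metals differed by 0.23 (adjusted p 0.353). TGFB2, at 52.0 CPM with zinc protoporphyrin, was higher with tin protoporphyrin than with HPPE. It stood at 56.2 ± 2.31 CPM against 27.2 ± 2.50 CPM (1.07, interval 0.85 to 1.29, adjusted p 8.41e-06). INSIG1 also differed, by 0.47 (0.26 to 0.69, adjusted p 0.0232), and was the 1 sterol gene called. The 238 calls became 91 without HPPE replicate 2, 117 without HPPE replicate 3, 154 without HPPE replicate 1 and 117 without tin protoporphyrin replicate 3.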

How the data were processed

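Total RNA of SH-SY5Y cells was made into sequencing libraries with an MGIEasy kit for RNA (labels' protocols). The deposited values were whole-number counts per gene, made by the authors with fastp 0.21.1, STAR 2.7.7a and featureCounts on GRCh38, per the submitters' processing notes. The annotation and the use of strand were not given in the sources used here. Gene identifiers were matched to symbols for 60481 of 60710 genes.

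Counts of all 12 libraries (4 groups of 3) were fitted in 1 model with edgeR 4.0.16 in R 4.3.3, with 1 mean per group, TMM scaling, the filterByExpr filter and robust quasi-likelihood tests. Genes tested held 99.6% of counts. P-values were adjusted by Benjamini-Hochberg over 16366 genes, and genes at an adjusted p under 0.05 were called. Values are normalised CPM, and log2 fold changes are given with their SE or 95% interval. The fit was run on simulated counts that held no library axis and no length trend, so that run does not test the calls under either. DESeq2 1.42.0 and 14 other alternatives were run, among them the removal of each library.

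Besides HMOX1, HMOX2, GREM1 and members of the lists, genes were named by rule among calls without overlap and with at least 1 CPM in either group. These were the 10 increases and 10 decreases with the smallest p, the 10 of each with the largest change, and the 5 of each with the largest change at 50 CPM or more. ENSG00000260412 has no symbol. Members, lists and rules were chosen with earlier results of these data known. Sterol promoters shown are those of the 4 called genes with the smallest p among those with a RefSeq promoter, a CCAAT box and a stretch free of GENCODE 29 exons. Gene positions are from GENCODE 29 on GRCh38. Results for some genes that the rules or lists include are not reported here, though counts include them.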

Additional observations from a re-analysis of the deposited data

How the results depend on the processing

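Against DMSO, 311 genes were higher and 62 lower. The higher calls were 127 with only the 2 groups fitted, 191 with the replicate block, 1254 with the library axis as covariate and 137 to 390 when 1 library was left out. The lower calls were 40 without scaling, 4 with only the 2 groups, 18 with the replicate block, 937 with the axis and 9 to 237 without 1 library. DESeq2 gave 265 and 48. Against zinc protoporphyrin, 1 call became 270 without the filter, 2 with a minimum of 1 CPM, 2 with DESeq2, 2327 with the axis and 1 to 1453 without 1 library. Against HPPE, 238 calls became 420 without the filter, 144 with only the 2 groups, 139 with the replicate block, 2582 with the axis and 91 to 342 without 1 library. The cause of these shifts was not tested, beyond the fewer libraries in the fits that leave some out.

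Of 636 named or listed genes 138 were called, of which 54 kept the call in every alternative and 84 lost it in at least 1. Of the 498 not called 93 gained a call in at least 1, and 0 changed sign while called. Same-numbered tin protoporphyrin and DMSO libraries had correlations of -0.68, 0.31 and 0.16 in their deviations from group means. The library axis held 52.2% of the variance of these deviations. The correlations therefore cannot tell whether same-numbered libraries were handled together. The shallow DMSO replicate 3 limits genes below 1.91 CPM. Counts by list and the CArG box were chosen after seeing the data.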

Other observations

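Gene groups outside the lists above were described from 5 further lists, written after the calls were seen, so their counts describe these libraries and support nothing. Of 22 tested genes of NF-kB signalling, the pathway that switches on survival and inflammatory genes, 9 were called higher and 0 lower, with a median log2 fold change of 0.45. TRAF1, an adaptor of TNF receptors, stood at 3.44, 6.07 and 7.02 CPM in the controls and 19.3, 20.7 and 16.6 CPM with tin protoporphyrin, and CD274, the immune checkpoint ligand PD-L1, at 5.16, 5.28 and 3.83 against 12.9, 13.2 and 17.5 CPM. Neither gene's groups overlapped (3.76-fold and 2.85-fold, adjusted p 2.76e-05 and 0.000109). The subunits RELB and NFKB2 rose 2.41-fold and 1.61-fold, and BIRC3, an inhibitor of cell death, 3.63-fold. The 9 calls became 3 without DMSO replicate 1, 4 without DMSO replicate 2 and 5 when the 6 libraries were fitted alone. TRAF1 was at 18.4 ± 1.92 CPM with zinc protoporphyrin and 9.69 ± 1.20 CPM with HPPE (SD, n = 3), and tin protoporphyrin differed from HPPE by 0.94 on the log2 scale (interval 0.59 to 1.295, adjusted p 0.00621).

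Focal adhesion genes gave 18 increases and 0 decreases among 41 (median 0.46). FBLIM1, which links filamin to integrin adhesions, went from 40.2, 41.6 and 35.7 CPM to 80.5, 78.2 and 80.0 CPM, and ACTN1, an actin cross-linker, from 165, 160 and 160 CPM to 247, 248 and 243 CPM. The treated libraries of both genes lay close together and far above the controls. The laminin-binding integrin subunit ITGA6 rose 2.42-fold and tensin TNS1 1.85-fold. Secreted matrix proteins gave 15 increases and 0 decreases among 35, with a median of 0.38, or 0.36 with CCN2 at its bound. THBS1, thrombospondin 1, went from 72.0, 59.9 and 52.96 CPM to 113, 141 and 122 CPM, and PTX3, a pentraxin of inflamed matrix, from 5.56, 6.47 and 10.2 CPM to 27.9, 19.2 and 22.7 CPM. PAPPA, a protease that frees insulin-like growth factors, rose 2.41-fold, and tenascin TNC 1.496-fold. These 15 became 8 without DMSO replicate 2 and 9 when the 6 libraries were fitted alone. TNC and PAPPA were higher with tin protoporphyrin than with HPPE, by 0.55 (interval 0.39 to 0.71, adjusted p 0.000649) and 0.80 (0.53 to 1.08, adjusted p 0.00284). Neither differed by a call between the metals. TNC stood at 206 CPM with zinc and 247 CPM with tin protoporphyrin, and PAPPA at 102 and 95.4 CPM.

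Of 12 neuropeptide and dense-core granule genes 4 were called higher and 0 lower (median 0.22), VGF and SCG2 among them. VIP, the vasoactive intestinal peptide, went from 8.60, 10.6 and 12.8 CPM to 21.7, 16.8 and 19.6 CPM without overlap. NPY, neuropeptide Y, was at 19.2, 22.2 and 39.6 CPM against 75.4, 31.4 and 49.0 CPM, so that its groups overlapped, and it lost its call in 12 of 15 alternative fits. The 4 calls became 1 without DMSO replicate 1, 2 without DMSO replicate 2 and 2 when the 6 libraries were fitted alone. Among 15 Wnt antagonists and receptors 3 were called higher and 2 lower (median 0.03). DKK1, an antagonist of Wnt receptors, went from 28.2, 31.8 and 41.5 CPM to 84.3, 60.3 and 65.5 CPM, and the R-spondin receptor LGR5 rose 1.27-fold. The antagonist SFRP1 and the R-spondin receptor LGR4 were 1.29-fold and 1.45-fold lower, and neither was called without DMSO replicate 1, DMSO replicate 2, or tin protoporphyrin replicate 1 or 3, or when the 6 libraries were fitted alone.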
